A study of Homo sapiens with 8 samples.

Results

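The cadherin switch and its regulators were followed through 9 genes, chosen by symbol, out of 35113 genes summed from the transcript files. They were the cadherins CDH1, CDH2 and CDH3, the cytoskeletal and matrix genes VIM and FN1, and the transcription factors ZEB1, ZEB2, SNAI2 and TWIST1. All 9 were found in the files, and all 9 were among the 15221 genes tested. RNA was sequenced from 4 groups of head and neck squamous cell carcinoma cells, with 2 libraries per group. The HPV- resistant cells (SCC411) were 1 single-cell clone raised from the HPV- parental line UPCISCC89 (SCC89), and the HPV+ resistant cells (SCC35) were 1 single-cell clone raised from the HPV+ parental line UDSCC2 (SCC2). Both clones came out of long-term cisplatin treatment, at a higher dose for the HPV+ line, and were kept in drug-free medium once selected. Cisplatin is a platinum drug that crosslinks DNA. Each HPV status is represented by 1 line, so HPV status, line and selecting dose cannot be told apart, and neither can resistance and the traits of the cell each clone grew from. Whether both libraries of a group were grown as separate cultures is not stated, and the p-values therefore reflect only how far these libraries spread, which may be technical.

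Epithelial cells are held together at adherens junctions by classical cadherins, whose extracellular domains bind cadherins on the next cell and whose tails bind catenins. In an epithelial to mesenchymal transition (EMT), E-cadherin (CDH1) gives way to N-cadherin (CDH2), and the intermediate filament protein vimentin (VIM) and the matrix protein fibronectin (FN1) appear. The factors of the ZEB, SNAI and TWIST families drive this programme, and the ZEB and SNAI factors bind E-boxes in the CDH1 promoter and repress it. P-cadherin (CDH3) belongs to the basal layer of stratified epithelium, where SNAI2 is also found without any loss of the epithelial state.

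The deposited estimated counts summed to between 20250246 and 27341284 per library. All 10 squamous epithelial markers were above 1 CPM (counts scaled to library size, with no correction for length) in all 4 groups, among them KRT5, TP63 and DSG3. Endothelial markers summed to at most 1.15 CPM in any library. In the HPV- clone 6 of the 10 squamous markers fell and 1 rose, where 5.22% of all genes tested fell and 6.06% rose. Their summed level was 5752 to 6873 CPM in the clone and 22850 to 24440 CPM in HPV- parental cells. The part of this in the results below was not tested. Of 8 leukocyte markers, CD3D was at 0 in all 8 libraries and PTPRC, which marks all leukocytes, was at most 0.180 CPM. By group mean, CD68 and LYZ were above 1 CPM in all 4 groups and CD14 in both HPV- groups. ITGAM was above 1 CPM in the HPV- clone alone and at 0 in both HPV+ groups. The leukocyte list summed to 55.9 to 81.5 CPM in the HPV- clone and 156.5 to 163.9 CPM in HPV- parental cells, and to 11.1 to 14.1 CPM in the HPV+ clone and 16.3 to 18.4 CPM in HPV+ parental cells. CD14 was called higher in both clones, and CD68, a lysosomal protein, was called lower in the HPV- clone. Fibroblast markers were present in the HPV+ line and are given beside VIM below.

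In the HPV- resistant clone 4 of the 9 genes rose and 0 fell, whereas in the HPV+ resistant clone 2 rose and 4 fell. Genes were called differentially expressed at an adjusted p under 0.05 (edgeR, Benjamini-Hochberg over all genes tested) with a log2 fold change beyond 1. In the HPV- clone CDH1, CDH2, ZEB2 and FN1 rose, where 6.06% of all genes tested rose and 5.22% fell. At an unadjusted p under 0.05, 1 gene was lower (SNAI2), and DESeq2 also called 0 lower. In the HPV+ clone CDH1 and SNAI2 rose and CDH3, VIM, ZEB1 and TWIST1 fell, against backgrounds of 3.4% and 4.6%. The median log2 fold change of the 9 genes was 1.01 in the HPV- clone and -0.65 in the HPV+ clone, while that of all genes tested was 0.04 in the HPV- clone and 0 in the HPV+ clone. The count in the HPV- clone dropped to 1 of 9, CDH2 alone, once an offset for the average transcript length of each gene in each library was added. That offset removed 2 calls in the HPV+ clone as well, SNAI2 and ZEB1, leaving 4.

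**Figure D1:**
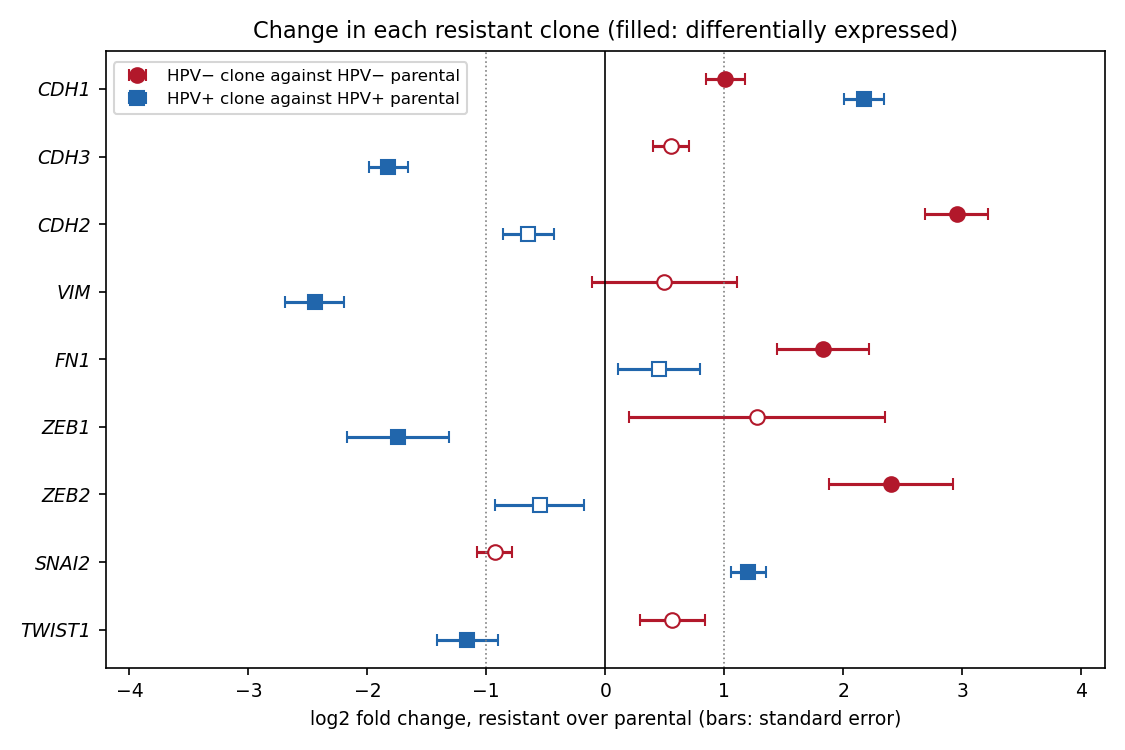
Log2 fold change of each gene (x axis, resistant over parental) in the HPV- clone (circles) and the HPV+ clone (squares), with standard errors as bars. Filled symbols are differentially expressed and dotted lines mark a log2 fold change of 1 in either direction. CDH1 was higher in both clones, at 1.01 in the HPV- clone and 2.18 in the HPV+ clone, while CDH2, CDH3, VIM, ZEB1, ZEB2, TWIST1 and SNAI2 had values of opposite sign in the 2 clones.

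The change itself differed between the lines for 7 of the 9 genes by the interaction test, which takes the HPV+ change minus the HPV- change. The difference was above 0 for CDH1 (1.17 ± 0.23, SE) and SNAI2 (2.13 ± 0.20), where 5.17% of all genes tested passed in that direction. It was below 0 for CDH2, CDH3, VIM, ZEB2 and TWIST1, where 6.57% passed. For ZEB1 (-3.02 ± 1.17) and FN1 (-1.38 ± 0.51) it missed the threshold, with adjusted p-values of 0.108 and 0.106 in edgeR, which does not show that the lines changed alike. Over 15 alternatives a call was gained in 2 for FN1 and in 1 for ZEB1, and DESeq2 called 8 of the 9 genes. The call of VIM was lost without some of the HPV- libraries, where the adjusted p was 0.0609 without HPV- resistant 1, 0.0923 without HPV- resistant 2 and 0.0763 without HPV- parental 1. Likewise TWIST1 reached an adjusted p of 0.0696 and ZEB2 one of 0.0613 without HPV+ parental 1, and with the transcript length offset ZEB2 reached 0.13.

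CDH1, the E-cadherin gene (chr16:68737292-68835537, plus strand, GRCh38), rose in both resistant clones. In the HPV- line it had 174 and 221 CPM in the resistant libraries, against 87.8 and 108 CPM in the parental libraries. In the HPV+ line it had 186 and 190 CPM in the resistant libraries, against 39.3 and 43.9 CPM in the parental libraries. The libraries did not overlap in either line, and the resistant cells of both lines stood at about the same level, with the HPV+ resistant values inside the range of the HPV- resistant ones. The log2 fold change was 2.18 ± 0.17 (SE, n = 2 per group, edgeR adjusted p = 7.64e-05) in the HPV+ clone and 1.01 ± 0.16 (adjusted p = 0.00203) in the HPV- clone. The HPV- value sat on the fold threshold: it was 0.82 without HPV- resistant 2, 0.86 without HPV- parental 1 and 0.96 without HPV+ parental 1, each time with an adjusted p of at most 0.0146 but no longer beyond 1. Over all 16 alternatives it ran from 0.82 to 1.17, and the call was lost in 6, the transcript length offset among them. The canonical coding transcript CDH1-201 alone had 40.7 and 51.6 TPM (scaled for both transcript length and depth) in the HPV- resistant libraries, against 16.2 and 23.9 TPM in the HPV- parental libraries. It had 48.1 and 49.7 TPM in the HPV+ resistant libraries, against 8.88 and 10.7 TPM in the HPV+ parental libraries.

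CDH3, the P-cadherin gene (chr16:68636189-68727468, plus strand), lies directly before CDH1 on the chromosome and moved against it in the HPV+ clone. There it fell to 7.57 and 7.01 CPM in the resistant libraries, against 25.7 and 25.9 CPM in the parental libraries, a log2 fold change of -1.82 ± 0.17 (edgeR adjusted p = 0.000151). In the HPV- line it had 495 and 642 CPM in the resistant libraries, against 390 and 387 CPM in the parental libraries. Those libraries did not overlap, but the log2 fold change of 0.55 ± 0.15 (adjusted p = 0.0224) was under the fold threshold. The 20 tested genes around CDH1, CDH3 included, had a median log2 fold change of -0.35 in the HPV- clone and -0.21 in the HPV+ clone, so the rise of CDH1 was not shared by its neighbours, of which 0 rose in either clone. Their edgeR calls included 3 that fell in the HPV- clone and 2 that fell in the HPV+ clone. For comparison, 6.06% of all genes tested rose and 5.22% fell in the HPV- clone, and 3.4% rose and 4.6% fell in the HPV+ clone. In HPV- cells 44.7 to 51.2% of CDH3 TPM lay on transcripts annotated for nonsense-mediated decay, and these share most of their sequence with the coding ones, so the split is uncertain.

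CDH2, the N-cadherin gene (chr18:27932879-28177946, minus strand), rose in the HPV- clone, and its change differed between the lines (-3.60 ± 0.34, edgeR adjusted p = 0.000162). It had 25.2 and 14.9 CPM in the HPV- resistant libraries, against 2.19 and 2.93 CPM in the HPV- parental libraries. The log2 fold change was 2.96 ± 0.27 (adjusted p = 0.000115), and it stayed between 2.52 and 3.28 and past the threshold in all 16 alternatives. In the HPV+ line, where CDH2 was abundant, it had 283 and 288 CPM in the resistant libraries, against 425 and 469 CPM in the parental libraries. The 4 libraries did not overlap, yet the log2 fold change of -0.65 ± 0.21 missed the threshold (adjusted p = 0.0604). Even after its rise, CDH2 in the HPV- clone stayed far under either group of the HPV+ line.

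**Figure D2:**
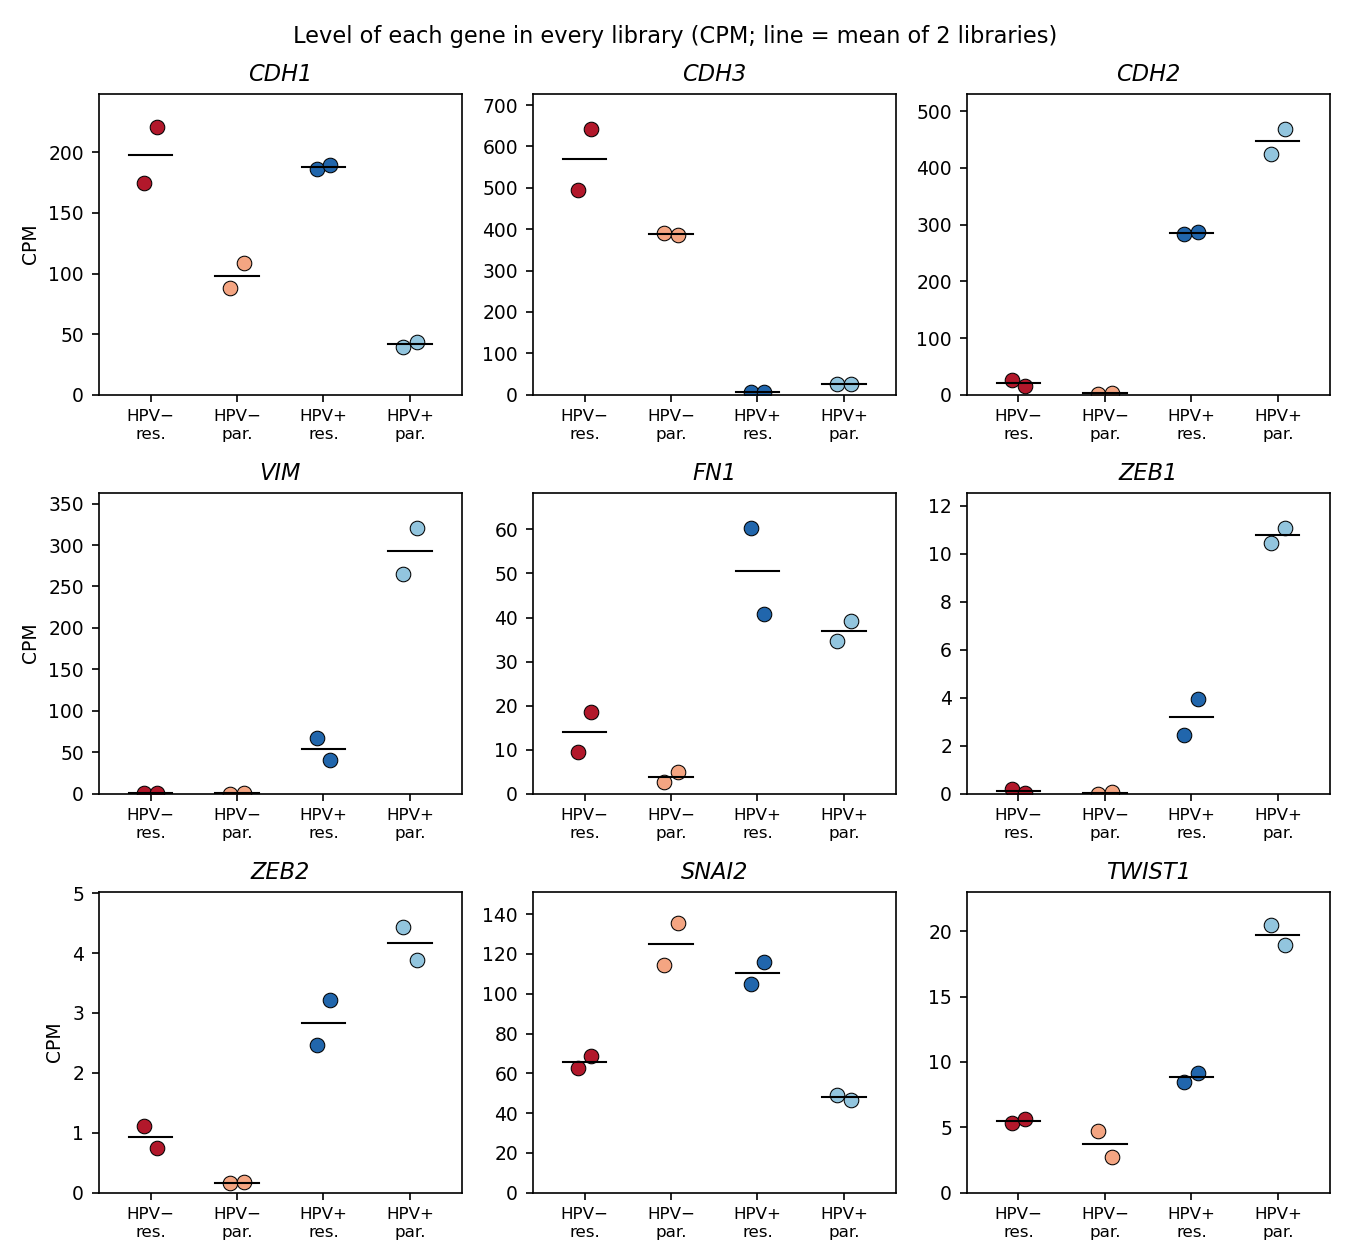
Level of each of the 9 genes in every library in CPM (y axes, linear from 0, each panel on its own scale). Points are libraries, horizontal lines are means of 2 libraries, and res. and par. stand for resistant and parental. The HPV+ resistant points lie at 186 and 190 CPM for CDH1, above 39.3 and 43.9 CPM in HPV+ parental cells, and at 67.4 and 40.3 CPM for VIM, below 266 and 320 CPM in HPV+ parental cells.

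Set against each other on the length-scaled TPM scale, the ratio of CDH2 to CDH1 was lower in the HPV+ clone and higher in the HPV- clone than in their parental cells. The ratio of CDH2 to CDH1 was 1.77 and 1.88 in the HPV+ resistant libraries, against 12.5 and 13.4 in the HPV+ parental libraries. In the HPV- line the same ratio was 0.179 and 0.0819 in the resistant libraries, against 0.0258 and 0.0312 in the parental libraries. The ratio of CDH3 to CDH1 was lower in both clones, with 0.0847 and 0.0646 in the HPV+ resistant libraries against 1.17 and 1.05 in the HPV+ parental libraries, and 5.33 and 5.74 in the HPV- resistant libraries against 7.80 and 5.82 in the HPV- parental libraries. The ratio of CDH2 to CDH3 was higher in both, with means of 25.05 in HPV+ resistant against 11.64 in HPV+ parental cells and 0.0239 in HPV- resistant against 0.00434 in HPV- parental cells. N-cadherin mRNA thus remained the more abundant of the pair in every HPV+ library and the less abundant in every HPV- library. The ratio rests on the scale used: on the CPM scale, which ignores length, the mean log2 ratio was 0.60 in HPV+ resistant and 3.42 in HPV+ parental cells, in place of 0.87 and 3.69 on the TPM scale. These ratios are descriptions of 2 libraries per group, with no test.

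The summed TPM of 18 classical cadherins was 332 and 409 in HPV- resistant libraries against 213 and 237 in HPV- parental libraries, and 260 and 248 in HPV+ resistant libraries against 231 and 243 in HPV+ parental libraries. CDH3 supplied 67.1 and 73.4% of it in the HPV- clone and 72.3 and 67.2% in HPV- parental cells. In the HPV+ line CDH2 supplied 34.1 and 37.8% in the clone, against 51.7 and 59.5% in parental cells. CDH1 supplied 19.2 and 20.1% in the HPV+ clone, against 4.15 and 4.44% in HPV+ parental cells. CDH24, a type II cadherin, was the second cadherin of HPV+ parental cells with 29.9 and 22%, and it stood at 37.2 and 31.4% in the HPV+ clone, although its own change was not called there (log2 fold change 0.33 ± 0.19). CDH8, named after its values were seen, supplied 7.52 to 16.4%, but all of its reads lay on 1 short non-coding transcript.

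**Figure D3:**
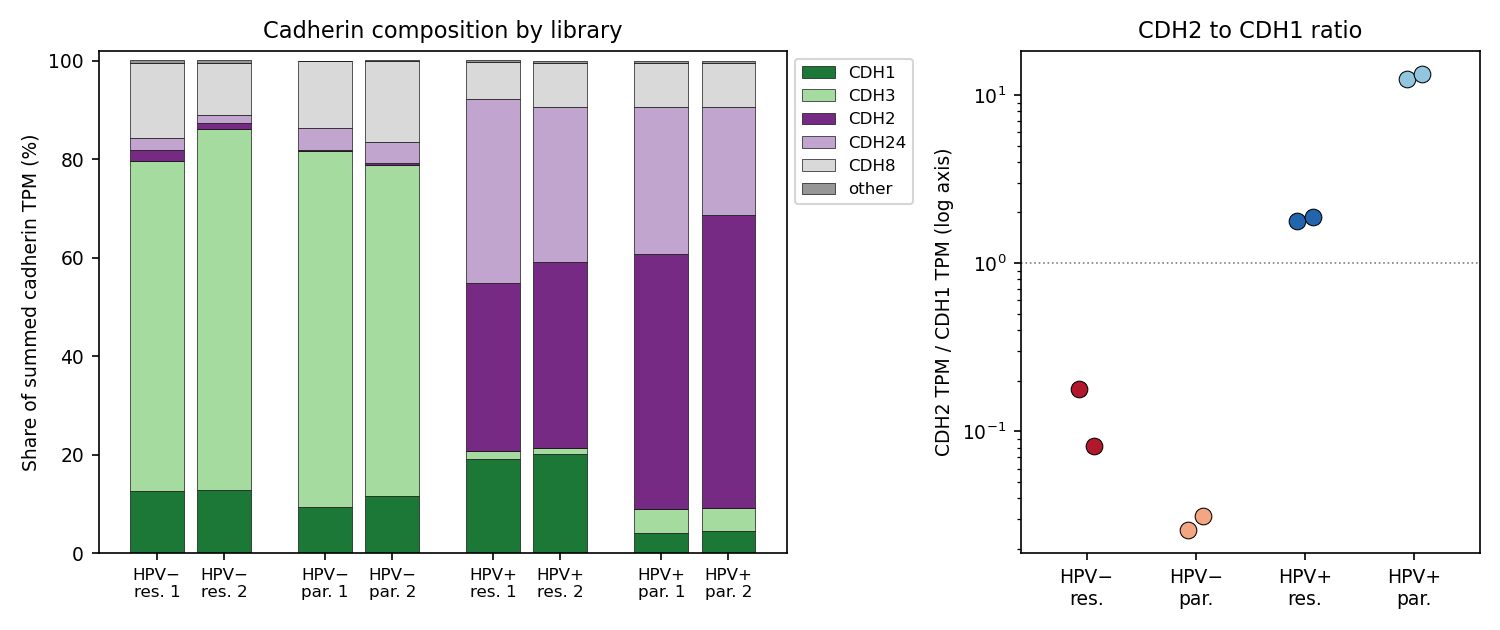
Left, share of each cadherin in the summed TPM of 18 classical cadherins (y axis, percent) in each library. Right, TPM of CDH2 over TPM of CDH1 on a log axis, with a dotted line where both are equal. CDH3 makes up 67.1 to 73.4% of each HPV- library and 1.3 to 4.87% of each HPV+ library, and the ratio on the right is above 1 in the 4 HPV+ libraries and below 1 in the 4 HPV- libraries.

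VIM, the vimentin gene (chr10:17228241-17237593, plus strand), fell in the HPV+ clone and was barely detected in the HPV- line. It had 67.4 and 40.3 CPM in the HPV+ resistant libraries, against 266 and 320 CPM in the HPV+ parental libraries, a log2 fold change of -2.44 ± 0.25 (edgeR adjusted p = 0.000398). This call held in all 16 alternatives, between -2.87 and -2.12. Only 22 counts fell on VIM in both HPV- resistant libraries together and 16 in both parental libraries, a ratio of 1.41 with an exact 95% interval from 0.707 to 2.87 that covers counting error only. A change of VIM was not detectable in the HPV- clone at this depth (log2 fold change 0.50 ± 0.61, adjusted p = 0.586), and its sign turned to -0.13 with the transcript length offset.

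Of 10 fibroblast markers in the HPV+ line, LUM and DCN, which encode small proteoglycans of collagenous matrix, fell and 0 rose by edgeR among the 7 tested, with 0 higher at an unadjusted p under 0.05 and 0 in DESeq2. Their median log2 fold change was -0.36, and 4.6% of all genes tested fell. LUM had 91.0 and 65.8 CPM in the HPV+ clone, against 241 and 290 CPM in HPV+ parental cells, a log2 fold change of -1.76 (edgeR adjusted p = 0.00178). DCN had 43.6 and 20.03 CPM in the clone, against 99.4 and 119.5 CPM in parental cells, and its call (-1.78, adjusted p = 0.0339) was lost without either HPV- parental library or either HPV+ parental library, at adjusted p-values from 0.0869 to 0.176. The 10 markers summed to 1452 and 3221 CPM in the HPV+ clone and to 3069 and 3392 CPM in HPV+ parental cells. Most of that sum was COL3A1, with 3079 and 1358 CPM in the clone and 2718 and 2974 CPM in parental cells, which was not called. In bulk RNA, fewer cells of a type and less RNA per cell cannot be told apart. By group mean, COL1A1, COL3A1, DCN and LUM were above 1 CPM in both HPV+ groups, and FAP in HPV+ parental cells. Of the receptors on the list, PDGFRB had 0 counts in the 4 HPV+ libraries, and PDGFRA had 0 in 3 of them and 0.113 CPM in the other. The collagen gene COL1A2 was at most 1.27 CPM there. Among HPV- cells the 10 markers summed to at most 13.2 CPM in the clone and 5.59 CPM in parental cells.

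**Figure D4:**
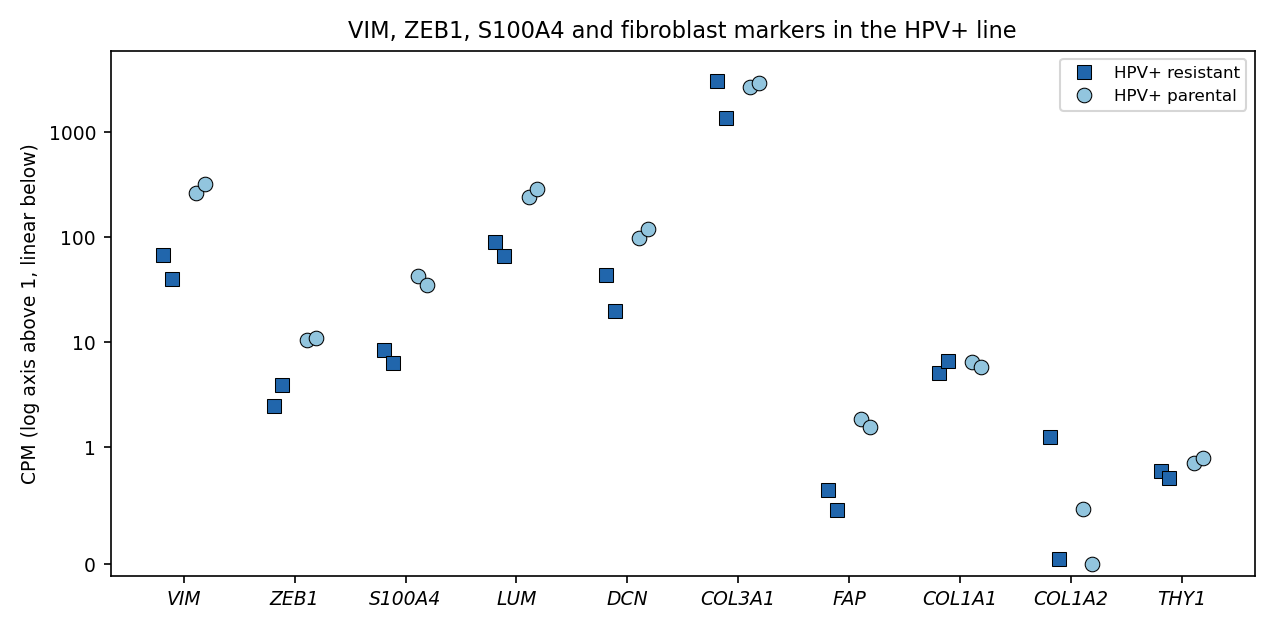
CPM (y axis, logarithmic above 1 and linear below) of VIM, ZEB1, S100A4 and 7 fibroblast markers in HPV+ resistant libraries (squares, left) and HPV+ parental libraries (circles, right). VIM, ZEB1, S100A4, LUM, DCN, FAP and THY1 are lower in both resistant libraries than in both parental ones. COL3A1 overlaps, and so does COL1A1, with 5.16 and 6.7 CPM in resistant and 6.52 and 5.85 CPM in parental libraries. Of the fibroblast markers shown, only LUM and DCN were called.

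FN1, the fibronectin gene (chr2:215360440-215436073, minus strand), rose in the HPV- clone. It had 9.47 and 18.6 CPM in the HPV- resistant libraries, against 2.78 and 5.05 CPM in the HPV- parental libraries. The log2 fold change was 1.83 ± 0.39 (edgeR adjusted p = 0.00981), but 1.46 with an adjusted p of 0.0755 without HPV- parental 1, and 0.98 with the transcript length offset (adjusted p = 0.149). In the HPV+ line it had 60.4 and 40.9 CPM in the resistant libraries, against 34.8 and 39.2 CPM in the parental libraries, and the change of 0.45 ± 0.34 was not called.

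The ZEB factors are zinc finger repressors of epithelial genes, and both were rare. ZEB1 (chr10:31318495-31529814, plus strand) fell in the HPV+ clone, to 2.46 and 3.95 CPM against 10.4 and 11.1 CPM in HPV+ parental cells. The log2 fold change of -1.74 ± 0.43 (edgeR adjusted p = 0.0198) rested on few libraries: the adjusted p was 0.0971 without HPV+ resistant 1, 0.128 without HPV+ parental 1 and 0.122 without HPV+ parental 2. ZEB1 was close to absent in the HPV- line, with 4 and 1 counts in the resistant libraries against 0 and 2 in the parental libraries. That ratio of 2.56 had an exact 95% counting interval from 0.419 to 26.9, and none of these reads lay on a protein-coding transcript.

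ZEB2 (chr2:144364364-144521057, minus strand) rose in the HPV- clone from a very low base. It had 22 and 15 counts (1.11 and 0.748 CPM) in the HPV- resistant libraries, against 3 and 4 counts (0.160 and 0.180 CPM) in the HPV- parental libraries. The ratio was 5.42 with an exact 95% counting interval from 2.38 to 14.4, and the log2 fold change was 2.40 ± 0.52 (edgeR adjusted p = 0.00794). In the HPV+ line it had 2.46 and 3.22 CPM in the resistant libraries, against 4.44 and 3.89 CPM in the parental libraries, a change of -0.55 ± 0.37 that was not called (adjusted p = 0.334). With the transcript length offset the HPV- change was 2.10 with an adjusted p of 0.0656. On the CPM scale ZEB2 in the HPV- clone stayed under every HPV+ library. On protein-coding transcripts alone, HPV- resistant 1 had 0.787 TPM and HPV+ resistant 1 had 0.773 TPM. Of the HPV- resistant counts, 19.3 and 7.86 lay on ZEB2-247, a transcript of 4 exons. The canonical transcript took 0% of ZEB2 TPM in each HPV- library and at most 5.74% in any HPV+ library.

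SNAI2 (chr8:48917598-48921740), which encodes Slug, had the highest TPM of the 4 factors in all 8 libraries, and its change differed between the clones. It rose to 105 and 116 CPM in the HPV+ clone, against 49.2 and 46.6 CPM in HPV+ parental cells, a log2 fold change of 1.20 ± 0.14 (edgeR adjusted p = 0.000691). It had 62.8 and 68.6 CPM in the HPV- clone, against 115 and 136 CPM in HPV- parental cells. That change of -0.93 ± 0.14 had an adjusted p of 0.00156 but stayed just under the fold threshold, which it passed without HPV- resistant 2 (-1.0031) and without HPV- parental 1 (-1.06). The HPV+ change was 0.93 with the transcript length offset. CDH1 and SNAI2 were therefore both higher in the HPV+ clone than in its parental cells.

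TWIST1 (chr7:19020991-19117636, minus strand), a basic helix-loop-helix factor of mesoderm and neural crest, fell in the HPV+ clone. It had 8.45 and 9.18 CPM in the HPV+ resistant libraries, against 20.4 and 18.9 CPM in the HPV+ parental libraries. The log2 fold change was -1.16 ± 0.25 (edgeR adjusted p = 0.0125), but leaving out any 1 of the 4 HPV+ libraries brought the adjusted p to between 0.0562 and 0.112. In the HPV- line it had 5.34 and 5.63 CPM in the resistant libraries, against 4.75 and 2.71 CPM in the parental libraries. That change of 0.56 ± 0.27 was not called, and was 1.01 and called without HPV- parental 1. Transcripts annotated for nonsense-mediated decay took 7.31 and 16.0% of TWIST1 TPM in the HPV- resistant libraries, against 38.6 and 34.0% in the HPV- parental libraries. In the HPV+ line they took 14.9 and 7.53% in the resistant libraries, against 47.0 and 35.5% in the parental libraries. For HPV- cells these shares rest on few reads, with 1.94 and 4.98 reads of TWIST1-202 in the resistant libraries and 11.9 and 6.51 in the parental libraries. The coding transcript alone had 6.97 and 7.84 TPM in the HPV+ clone, against 12.7 and 13.7 TPM in HPV+ parental cells.

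ZEB and SNAI factors recognise the E-box CACCTG, read as CAGGTG on the other strand. RefSeq promoter windows (GRCh38.p14) were matched by symbol for 5 of the 9 genes, CDH2, FN1, VIM, ZEB1 and ZEB2. The 250 bases before each start were searched on both strands, and 17.5% of all 35116 promoters held the motif. Those of CDH2, FN1, VIM and ZEB2 did not hold these letters, and ZEB1 held them before 2 of its 7 starts. These starts are those of RefSeq and can differ from the ends of the gene spans given above. The CDH2 and ZEB2 windows lie inside those spans. The windows of CDH2, VIM and ZEB1, the 3 members with the widest gap between the parental lines, follow for the most upstream RefSeq start of each gene. They read 5′ to 3′ on the gene's strand, with the motif in capitals. In the ZEB1 window its first base lies 57 bases before the start. CDH2 is chr18:28177131-28177380 on the minus strand, VIM is chr10:17227991-17228240 and ZEB1 is chr10:31318167-31318416, both on the plus strand. A match is a description of sequence and not a bound site, and which start these cells used was not tested.
CDH2: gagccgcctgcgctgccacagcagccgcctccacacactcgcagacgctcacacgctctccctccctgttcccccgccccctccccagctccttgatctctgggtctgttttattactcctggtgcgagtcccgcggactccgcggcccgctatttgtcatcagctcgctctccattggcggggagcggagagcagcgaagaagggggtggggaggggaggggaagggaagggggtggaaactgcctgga
VIM: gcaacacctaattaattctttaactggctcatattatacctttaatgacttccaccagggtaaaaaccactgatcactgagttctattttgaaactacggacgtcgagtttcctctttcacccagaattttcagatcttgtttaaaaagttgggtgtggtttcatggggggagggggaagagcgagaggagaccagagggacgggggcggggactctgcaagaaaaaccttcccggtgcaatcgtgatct
ZEB1: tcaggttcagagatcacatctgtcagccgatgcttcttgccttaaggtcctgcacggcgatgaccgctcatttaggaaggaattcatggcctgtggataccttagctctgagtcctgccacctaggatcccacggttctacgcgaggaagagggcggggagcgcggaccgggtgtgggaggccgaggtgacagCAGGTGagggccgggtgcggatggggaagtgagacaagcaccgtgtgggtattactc

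Before resistance the lines already stood far apart. All 9 genes differed between HPV+ parental and HPV- parental cells, 6 higher in HPV+ cells (17.7% of all genes tested were) and 3 lower (19.3%). VIM was 9.54 ± 0.40 higher on the log2 scale, ZEB1 7.64 ± 0.69, CDH2 7.44 ± 0.30, ZEB2 4.56 ± 0.50, FN1 3.23 ± 0.39 and TWIST1 2.41 ± 0.27. CDH3 was lower in HPV+ parental cells by a log2 value of -3.91 ± 0.17, SNAI2 by -1.38 ± 0.15 and CDH1 by -1.24 ± 0.17. All edgeR adjusted p-values were at most 0.000132. ZEB1 and VIM had so few counts in the HPV- line that the size of their difference depends on the prior count of the fit.

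Ordered by CPM over the 4 groups, VIM, ZEB1, ZEB2, CDH2 and TWIST1 ran in the same order: HPV+ parental, HPV+ resistant, HPV- resistant, HPV- parental. The libraries of neighbouring groups did not overlap for CDH2, ZEB2 and TWIST1, while for VIM and ZEB1 the 2 HPV- groups overlapped. FN1 departed from that order only at the top, where the HPV+ clone stood above its parental cells. For CDH1 the order was HPV- resistant, HPV+ resistant, HPV- parental and HPV+ parental, and the first pair overlapped. For SNAI2 it was HPV- parental, HPV+ resistant, HPV- resistant and HPV+ parental, again with the first pair overlapping. HPV+ parental cells were thus lowest for both CDH1 and SNAI2.

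Over the 8 libraries, the genes whose log2 CPM was most like that of a member were found among 13171 genes. CDH1 was most like COL8A2 (Pearson's r = 0.989, Spearman's rho = 0.929) and LRRC28 (0.982 and 0.905). ZEB2 and CDH2 shared OLFM2 as their closest gene, at r = 0.997 with ZEB2 and 0.996 with CDH2. For SNAI2 the closest were PROSER2 and MARK3, both at r = 0.975. Among the members themselves, CDH2 and ZEB2 were the most alike (r = 0.99), followed by VIM and ZEB1 (r = 0.987). The 8 libraries fall into 2 lines with large differences, so these values mostly describe the gap between lines and are given without a p.

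Genes around the members mostly did not move with them. The 20 tested genes nearest to CDH2 had a median log2 fold change of 0.04 in the HPV- clone, against 2.96 for CDH2 itself. The 20 nearest to VIM had a median of 0.26 in the HPV+ clone, against -2.44 for VIM. Around SNAI2 the median was 0.27 in the HPV+ clone, with 3 of 20 neighbours that rose and 1 that fell, against 1.20 for SNAI2. Around TWIST1 it was -0.25 in the HPV+ clone, with 3 of 20 neighbours that fell, against -1.16 for TWIST1. Among all genes tested, 3.4% rose and 4.6% fell in the HPV+ clone.

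Among 12 tested genes of a list of other EMT transcription factors, 1 rose and 3 fell in the HPV- clone, with a list median of -0.20 on the log2 scale. Of all genes tested, 6.06% rose and 5.22% fell in the HPV- clone, and 3.4% rose and 4.6% fell in the HPV+ clone. HMGA2, a chromatin protein, fell to 29.8 and 42.6 CPM in the HPV- clone, against 108 and 124 CPM in HPV- parental cells. FOSL1, an AP-1 subunit, fell to 23.2 and 47.7 CPM, against 259 and 308 CPM (log2 fold change -3.00 ± 0.36, edgeR adjusted p = 0.00114). ETS1, a founding ETS factor, fell by 1.39 on the log2 scale. The 1 that rose was SNAI3, with 69 counts in the clone against 3 in parental cells, a ratio of 23.6 with an exact 95% counting interval from 7.74 to 117. In the HPV+ clone 1 rose, SOX9, with 2.50 and 1.94 CPM against 0.354 and 0.604 CPM, and 0 fell by edgeR, with 2 lower at an unadjusted p under 0.05 and 0 in DESeq2. The count of 1 became 2 without HPV- resistant 1, without HPV- resistant 2 or without HPV+ resistant 2.

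Regulators that hold the epithelial state changed in both directions in both clones. Of 13 tested, 3 rose and 3 fell in the HPV- clone, and 3 rose and 4 fell in the HPV+ clone, with medians of -0.42 and 0.08. Across every gene tested, upward calls made up 6.06% (HPV- clone) and 3.4% (HPV+ clone). Downward calls made up 5.22% and 4.6%, respectively. ESRP1, a splicing factor of epithelial cells, rose in the HPV+ clone to 4.68 and 9.42 CPM, against 0.472 and 0.566 CPM in HPV+ parental cells (log2 fold change 3.75 ± 0.39, edgeR adjusted p = 0.000417). That remained far under the 122 and 144 CPM of the HPV- clone and the 155 and 183 CPM of HPV- parental cells. ELF3, an epithelial ETS factor, rose in the HPV- clone to 74.6 and 77.2 CPM, against 5.39 and 3.70 CPM, and had 0 counts in the HPV+ clone against 25 in HPV+ parental cells, at least 8.19-fold lower by a floor of 3 counts over the group. FOXA1, a pioneer factor, also split, rising by 2.40 in the HPV- clone, while in the HPV+ clone it fell by 1.65 on the log2 scale. KLF4 fell in both clones, by 1.27 in the HPV- clone and by 2.77 in the HPV+ clone. OVOL1, a repressor of ZEB1, fell in the HPV- clone to 4.63 and 9.42 CPM, against 47.5 and 42.4 CPM. EHF rose by 1.72 in the HPV- clone, and its rise of 1.20 in the HPV+ clone was lost without HPV+ resistant 1 (0.88) or HPV+ parental 1 (adjusted p = 0.0618). The HPV+ count of 7 became 4 without HPV+ parental 1 and also with the transcript length offset.

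Catenins and nectins are the partners of cadherins at the junction. Of 14 tested, 1 rose and 2 fell in the HPV- clone, where 6.06% of all genes tested rose and 5.22% fell. In the HPV+ clone 0 were called by edgeR, where 3.4% of all genes tested rose and 4.6% fell. There, with unadjusted p-values under 0.05, edgeR had 3 higher and 3 lower, and DESeq2 called 1 higher. Leaving out HPV+ resistant 1 or HPV+ parental 2 also gave 1 call. NECTIN3, an adhesion protein of the same junctions, rose in the HPV- clone to 2.97 and 2.54 CPM, against 0.267 and 0.316 CPM in HPV- parental cells. CTNNAL1, an alpha-catenin-like protein, fell by 1.18. The list medians were 0.18 in the HPV- clone and -0.01 in the HPV+ clone.

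Epithelial genes known as targets of ZEB or SNAI repression had medians above 0 in both clones, 0.42 in the HPV- clone and 0.53 in the HPV+ clone, beside 0.04 and 0 for all genes tested. Of 24 tested, 4 rose and 0 fell in the HPV+ clone (2 lower at an unadjusted p under 0.05 by edgeR, 0 in DESeq2), and 2 rose and 1 fell in the HPV- clone. Over all genes tested, 3.4% rose and 4.6% fell in the HPV+ clone, and 6.06% rose and 5.22% fell in the HPV- clone. ERBB3, a receptor of the EGFR family, rose in the HPV+ clone to 23.7 and 24.5 CPM, against 5.42 and 5.70 CPM in HPV+ parental cells (log2 fold change 2.11 ± 0.18, edgeR adjusted p = 0.000109). KRT18, a simple epithelial keratin, rose there to 1071 and 955.5 CPM, against 391 and 493 CPM. PRSS8, a membrane serine protease, rose in the HPV- clone to 26.6 and 28.7 CPM, against 5.71 and 7.71 CPM. In the HPV+ clone it had 14 counts against 2 in parental cells, a ratio of 7.12 with an exact 95% counting interval from 1.64 to 64.6. The count of 4 in the HPV+ clone became 2 without HPV+ resistant 1, HPV+ parental 1 or HPV+ parental 2, and the count of 3 in the HPV- clone became 1 without HPV- parental 2. KRT19, a simple epithelial keratin named after its values were seen, had 0 counts in the 4 HPV+ libraries.

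Mesenchymal effectors are cytoskeletal, matrix and surface genes that rise in EMT. Of 25 tested, 4 rose and 0 fell in the HPV- clone, and 3 rose and 3 fell in the HPV+ clone, with medians of 0 and -0.07. Beside these stand 6.06% higher and 5.22% lower among all genes tested in the HPV- clone, and 3.4% and 4.6% in the HPV+ clone. ACTA2, smooth muscle actin, rose in the HPV- clone to 3.73 and 4.69 CPM, against 0.321 and 0.631 CPM in HPV- parental cells. VCAN, a matrix proteoglycan, had 20 counts in the HPV- clone against 0 in HPV- parental cells, at least 6.83-fold higher by a floor of 3 counts over the group. In the HPV+ clone S100A4, a calcium-binding protein linked to motility, fell to 8.53 and 6.36 CPM, against 43.0 and 34.9 CPM in HPV+ parental cells. FSTL1 fell by 1.93. AXL, a receptor tyrosine kinase, rose in the HPV+ clone to 9.79 and 6.82 CPM, against 1.10 and 0.566 CPM, and POSTN, a matrix protein, rose to 16.9 and 10.97 CPM, against 2.59 and 2.38 CPM. At an unadjusted p under 0.05, 4 genes of the list were lower in the HPV- clone by edgeR, and DESeq2 called 0 lower.

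A partial EMT programme, in which matrix and protease genes rise while epithelial genes stay on, has been described in head and neck tumours. Of 14 genes tested, 5 fell and 1 rose in the HPV- clone, with a median of -0.70, and 2 fell and 2 rose in the HPV+ clone, with a median of -0.02. Among all genes tested, 5.22% fell and 6.06% rose in the HPV- clone, and 4.6% fell and 3.4% rose in the HPV+ clone. INHBA, an activin subunit, fell in the HPV- clone to 0.755 and 1.45 CPM, against 11.9 and 15.2 CPM in HPV- parental cells (log2 fold change -3.62 ± 0.61, edgeR adjusted p = 0.00277). The HPV- count of 6 became 3 without HPV- parental 1. VIM is itself on this list, so its fall in the HPV+ clone counts here again.

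TGF-beta, which induces EMT through SMAD factors, was followed through 21 genes. In the HPV+ clone 4 rose and 3 fell, where 3.4% of all genes tested rose and 4.6% fell. TGFBR2, the type II receptor, rose to 21.5 and 20.03 CPM, against 1.69 and 2.08 CPM in HPV+ parental cells (log2 fold change 3.46 ± 0.24, edgeR adjusted p = 3.73e-05). The ligand TGFB2 rose to 101 and 132 CPM, against 28.3 and 30.6 CPM, and PMEPA1, a feedback inhibitor induced by the pathway, rose to 49.88 and 49.99 CPM, against 6.84 and 5.10 CPM. The signal transducer SMAD3 fell by 1.07, the inhibitor SMAD6 by 1.39 and LTBP1, which tethers latent TGF-beta, by 1.46. In the HPV- clone 2 rose and 2 fell, where 6.06% of all genes tested rose and 5.22% fell. The inhibitor SMAD7 fell there by 1.45, to 8.96 and 10.1 CPM against 24.2 and 27.9 CPM in HPV- parental cells, and PMEPA1 fell by 1.13, a call that was lost without HPV- resistant 1 (-0.81). The list medians were 0.14 in the HPV+ clone and 0.26 in the HPV- clone.

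**Figure D5:**
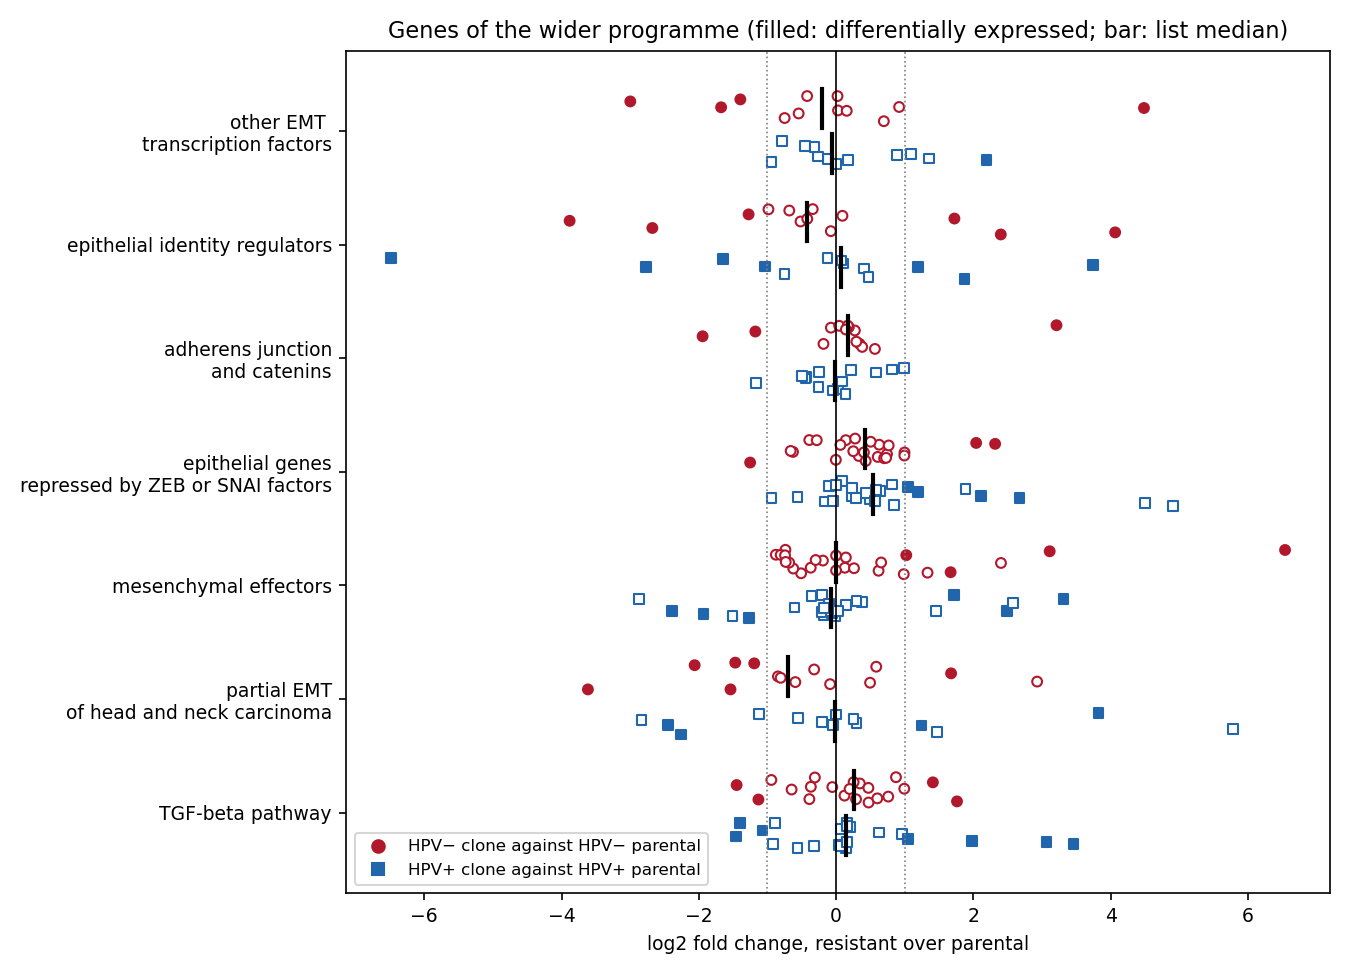
Log2 fold change (x axis, resistant over parental) of each tested gene of 7 lists in the HPV- clone (circles) and the HPV+ clone (squares). Filled symbols are differentially expressed, black bars are list medians and dotted lines mark a log2 fold change of 1. The widest values, ELF3 at -6.48 and VCAN at 6.54, are fitted against a group with 0 counts and depend on the prior count. The medians of epithelial genes known as ZEB or SNAI targets lie at 0.42 in the HPV- clone and 0.53 in the HPV+ clone.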

How the data were processed

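PolyA RNA-seq of 8 libraries was used, 2 for each of the 4 groups named in the labels. Salmon, run by the authors on GRCh38, gave the deposited estimated counts and TPM of 187432 transcripts. For its version and annotation the sources used here give nothing. RNA was extracted with the Monarch kit per the labels, and the methods also name a second kit without saying for which samples. The deposited TPM values are scaled for transcript length and library depth. No comparison columns of the authors were used.

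Transcripts were matched to GENCODE release 44 (172550 matched, and 4.33 to 5.13% of each library's counts were not), summed to 35113 genes and rounded. MIR205HG, MIR200CHG, TWIST2 and CLDN7 were not analysed here, and some results are not reported here. Genes kept by filterByExpr were tested with edgeR 4.0.16 (R 4.3.3, quasi-likelihood, TMM factors) in 1 model of all 4 groups, which pools the spread over 4 residual degrees of freedom (common dispersion 0.0326). Genes were called at an adjusted p under 0.05 with a log2 fold change beyond 1. CPM values are on TMM-scaled library sizes, and likeness used log2 CPM with a prior count of 2. The estimated counts ignore transcript length, which can differ between libraries, so an average transcript length offset was 1 alternative. The others were RLE and upper-quartile factors, no filter, a filter of 5 CPM, a replicate block, the 4 libraries of a comparison alone, each library left out in turn, DESeq2 1.42.0, no fold threshold, and CPM in place of TPM. Count ratios have exact 95% intervals and floors of 3 counts over the group, which cover counting error only. The fits were tested on simulated data.

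The members and lists were chosen with earlier results of these data known. Every member was named, and from each other list at most 3 called genes per direction with the smallest p, the 2 genes most like each member, and defining markers. CDH8, KRT19, COL3A1 and CDH24 were named beside these.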

Additional observations from a re-analysis of the deposited data

Results flagged for a closer look

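The change from parental to resistant cells differed between the 2 lines for 7 of the 9 genes in edgeR's interaction test. Of all genes tested, 5.17% passed above 0 and 6.57% below 0. The values below are the HPV+ change minus the HPV- change on the log2 scale. Among the members the difference was above 0 for CDH1 (1.17) and SNAI2 (2.13) and below 0 for CDH2 (-3.60), CDH3 (-2.37), VIM (-2.94), ZEB2 (-2.96) and TWIST1 (-1.72).

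The following genes of the other lists passed the same test. Above 0 were FOSL1 (4.09), SOX9 (1.497), ESRP1 (4.09), OVOL1 (2.78), CDH24 (1.01), ERBB3 (2.05), KRT18 (1.20), AXL (3.94), INHBA (5.08), PMEPA1 (4.196), TGFBR2 (3.20) and TGFB2 (1.63). Below 0 were SOX4 (-1.23), ELF3 (-10.55), FOXA1 (-4.05), KLF4 (-1.49), NECTIN3 (-2.99), ACTA2 (-2.97), VCAN (-6.72), S100A4 (-1.88), FSTL1 (-2.55), SMAD6 (-1.996) and LTBP1 (-2.33). ELF3 had 0 counts in the HPV+ clone and VCAN had 0 in HPV- parental cells, so their values depend on the prior count of the fit.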

How the results depend on the processing

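The number of members called was 4 in the HPV- clone, 6 in the HPV+ clone, 7 for the difference between the lines and 9 between the parental lines. Over the alternatives, 66 of these counts stayed within 1.5 times and 1 did not: with the transcript length offset 1 member was called in the HPV- clone, where the log2 fold change of VIM was -0.13, against 0.50, a change of sign in a value that was not called. Leaving out 1 library at a time gave 3 to 4 members in the HPV- clone, 4 to 6 in the HPV+ clone, 5 to 8 for the difference and 9 between the parental lines. With the replicate number as a block the counts were 4, 6, 7 and 9. Deviations of same-numbered libraries had correlations of -0.0739 in the HPV- line, -0.015 in the HPV+ line and 0.142 between the parental groups. Such values cannot show whether same-numbered libraries shared a culture or a batch, and the main fit used no pairing. Of the log2 fold changes of members and named genes, 1105 kept their direction and side of the threshold, 38 lost their call, 6 gained one and 1 reversed; where no value above shows it, the cause was not tested. With CPM in place of TPM the mean log2 ratio of CDH3 to CDH1 in HPV+ parental cells was -0.69, against 0.15. ZEB1, ZEB2 and VIM in the HPV- line rest on 2 to 37 counts per group, which limits what a change there can show.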
